A study of Mus musculus with 32 samples.

Results

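The nuclear receptors Hnf4a and Hnf4g were followed together with genes tied to protein uptake in the proximal tubule (Lrp2, Cubn, Amn, Dab2 and Clcn5). Kap, a product of proximal tubule cells, was added to them, in every library of a study of Enl tumor mutations in the mouse kidney. The 8 genes were taken as a fixed list, by Ensembl identifier, and all 8 were present in each of the 4 count tables, among 55806 identifiers in all. The study placed the mutations T1 (an insertion in the YEATS domain of ENL, the product of Mllt1) and T3 (a small deletion there) under Cre control in C57BL/6J mice and read polyadenylated RNA from 32 libraries in 11 groups. Whole E18.5 kidneys carried the Six2-TGC tg/+ transgene with Enl +/+ (ENLWT, 2 libraries), with EnlT1/+ (Six2-ENLT1, 2) or with EnlT3/+ (Six2-ENLT3, 2), or carried Foxd1 GC/+ with Enl +/+ (3) or EnlT1/+ (Foxd1-ENLT1, 3). Cells labelled by tdTomato were sorted from Six2-TGC tg/+ kidneys at either of 2 stages, E14.5 and E18.5 (3 libraries of Enl +/+ and 3 of EnlT1/+ each time) and from Foxd1 GC/+ kidneys at E18.5 (4 and 4). Controls carried the same Cre allele as the mutants they were compared with. Six2-TGC is a bacterial artificial chromosome transgene active in nephron progenitors, so that tubule cells descend from cells that had Cre, whereas Foxd1 GC is a knock-in that removes 1 Foxd1 copy in all its groups and is active in stromal progenitors. Whole kidneys of both drivers hold all lineages, and fewer cells of a type and less RNA per cell cannot be told apart in any of these libraries.

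Hnf4a is a transcription factor that the proximal tubule uses to turn on its brush border, transporter and metabolic genes, and Hnf4g is its close relative. Lrp2 encodes megalin and Cubn encodes cubilin, the large receptors that recover filtered proteins and vitamins from the tubule fluid. Cubilin has no segment of its own in the membrane and is carried to the surface by amnionless, the product of Amn. Dab2 is the adaptor that couples the tail of megalin to clathrin, and Clcn5 is a chloride and proton exchanger of the endosome whose loss causes a disorder of tubular protein uptake, Dent disease. The authors listed Clcn5 with their markers of the distal tubule and loop of Henle, and the part of each segment in its counts was not tested. Kap, the kidney androgen-regulated protein, is an abundant product of proximal tubule cells.

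Total counts ran from 106005614 to 157266455 in whole Six2 kidneys, from 67137194 to 79343015 in whole Foxd1 kidneys, from 115625561 to 137888792 in sorted Six2 cells at E14.5, from 76510702 to 92026288 at E18.5, and only from 2557443 to 3508381 in sorted Foxd1 cells, where 3 counts stand for 0.855 to 1.17 CPM (the count of a gene relative to all counts of its library). The targeted gene Mllt1 was present in every library, at 27.7 to 240.4 CPM. It was at 118.9 to 123.5 CPM in Foxd1 ENLWT kidneys and at 98.9 to 104.1 in Foxd1-ENLT1. In sorted E14.5 cells it was at 228.3 to 240.4 CPM in ENLWT and 213.0 to 219.9 in Six2-ENLT1. Six2 kidneys had 86.5 and 100.9 CPM in ENLWT and 78.3 to 84.2 in the mutants. The genotypes overlapped in sorted E18.5 cells of both lineages. The knock-in keeps the gene expressed, so its level does not check the labels. Sorted Foxd1 cells of ENLWT held 7048 to 9458 CPM of summed stroma markers against 306 to 521 CPM in sorted Six2 cells of the same stage and genotype, which held 1024 to 1274 CPM of nephron progenitor markers against 136 to 195.5 CPM. Sorted Foxd1 ENLWT cells also held 301 to 772 CPM of 27 proximal tubule transporters and enzymes (replicate 1 the highest). The Six2 and Foxd1 experiments were sequenced at different read lengths, so lineage and run cannot be told apart.

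The members lie on 6 chromosomes of GRCm38 (mm10), in the GENCODE vM21 annotation. Hnf4a is at chr2:163506808-163572910 on the plus strand, Hnf4g at chr3:3508030-3658052 (plus), Lrp2 at chr2:69424340-69586065 (minus), Cubn at chr2:13276338-13491813 (minus), Amn at chr12:111271095-111276426 (plus), Dab2 at chr15:6299788-6440712 (plus), Clcn5 at chrX:7153810-7319358 (minus) and Kap at chr6:133849851-133853762 (minus). Their merged exons run from 707 bases in Kap to 16701 in Lrp2, and levels are compared between genes only after division by this length. Because reads were counted without regard to strand, the 2.46% of Cubn exons and 2.87% of Dab2 exons shared with other gene models are uncertain.

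RefSeq promoter entries (GRCm38.p6) matched 7 of the 8 members, and none matched Hnf4g. The 250 bases before each start were searched on both strands for the HNF4 motif CAAAGTCCA, its first 6 letters CAAAGT, which every full match contains, and the direct repeat of AGGTCA with 1 free base between the copies. No member held CAAAGTCCA or the direct repeat, which occur in 0.384% and 0.0335% of 32851 promoter entries, and CAAAGT occurs in 12.6%. Lrp2 held CAAAGT 154 to 149 bases before its start, Dab2 held it 237 to 232 bases before its first start, and Clcn5 held it 212 to 207 bases before its second start. Hnf4a, Cubn, Amn and Kap held none. The stretch of Lrp2 is shown for its match, in capitals, and that of Cubn, which moved most among the receptor genes, as a stretch with no match. The first lies at chr2:69586066-69586279 (minus) and the second at chr2:13491877-13492126 (minus), both outside annotated exons and read 5′ to 3′ on the strand of the gene. The 36 bases next to the Lrp2 start lie in annotated exons and are not shown. Positions before that start are therefore not counted from the end of the printed stretch.
Lrp2: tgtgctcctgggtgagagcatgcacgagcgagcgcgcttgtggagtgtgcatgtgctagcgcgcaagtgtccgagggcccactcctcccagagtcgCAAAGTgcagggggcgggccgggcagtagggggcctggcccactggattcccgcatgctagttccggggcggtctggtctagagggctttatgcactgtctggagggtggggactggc
Cubn: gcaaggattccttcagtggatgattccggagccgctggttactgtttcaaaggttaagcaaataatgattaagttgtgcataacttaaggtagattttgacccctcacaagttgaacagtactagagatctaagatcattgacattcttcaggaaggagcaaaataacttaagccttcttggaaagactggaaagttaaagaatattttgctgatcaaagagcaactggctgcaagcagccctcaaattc

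In ENLWT cells of the Six2 lineage sorted at E18.5, Lrp2 had the highest level per exon length, at 65.3 ± 11.7 CPM per kilobase (SD, n = 3). Dab2 at 20.6 ± 1.47, Clcn5 at 20.1 ± 1.90 and Hnf4a at 18.9 ± 3.06 CPM per kilobase followed and overlapped. Cubn stood at 10.1 ± 1.57, Kap at 6.83 ± 4.44, Amn at 5.15 ± 1.08 and Hnf4g, the lowest, at 0.782 ± 0.127 CPM per kilobase. The endocytic receptor thus exceeded every other member in this group, while Hnf4g was below Hnf4a in every library. In sorted Foxd1 ENLWT cells the order was different, and Dab2 led at 19.96 ± 2.12 CPM per kilobase (SD, n = 4), about the value of sorted Six2 cells. Amn came to 5.14 ± 1.29, Lrp2 to 3.28 ± 1.34 and Kap to 3.25 ± 1.99 CPM per kilobase there. Clcn5 came to 2.62 ± 0.125, Hnf4a to 1.63 ± 0.708 and Cubn to 0.834 ± 0.307 CPM per kilobase. In whole ENLWT kidneys under the Six2 driver Kap had the highest mean, at 106 ± 66.8 CPM per kilobase (SD, n = 2), but overlapped with Lrp2 at 57.2 ± 2.56, which in turn overlapped with Hnf4a at 52.1 ± 4.94. Under the Foxd1 driver Kap, at 124 ± 11.4 CPM per kilobase (SD, n = 3), stood apart from Hnf4a at 57.0 ± 1.98. Hnf4a overlapped with Amn at 55.6 ± 8.31, and Lrp2 came to 46.8 ± 3.11.

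**Figure D1:**
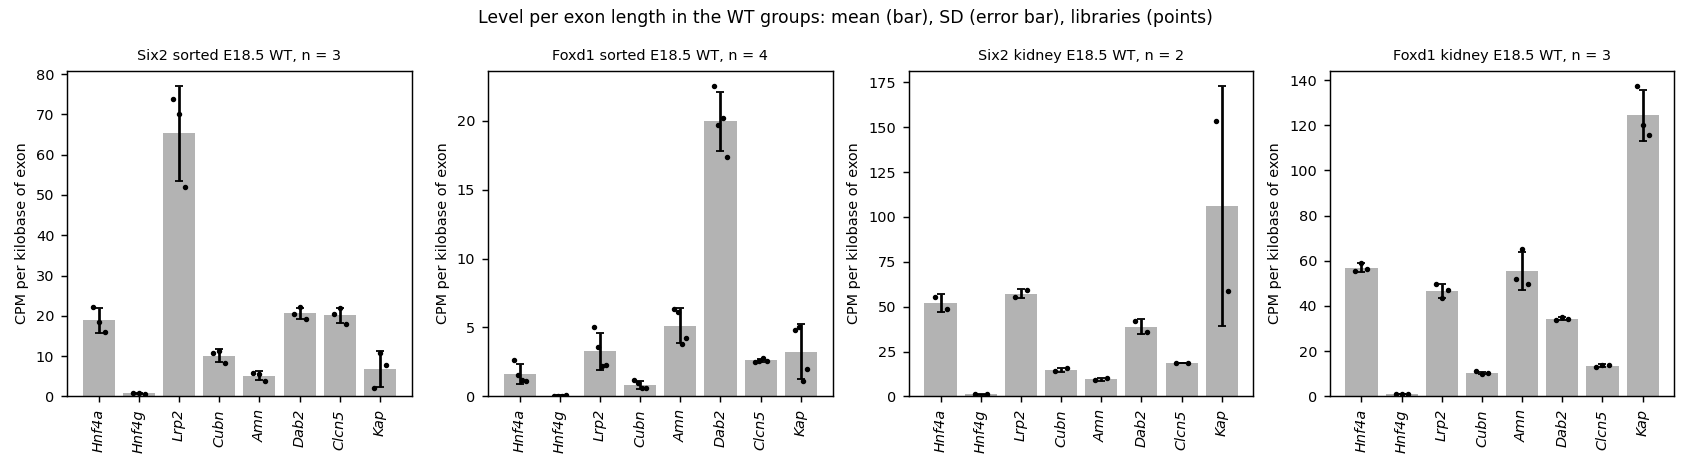
Level of the 8 genes per exon length (CPM per kilobase, linear axis from 0, a separate scale in each panel) in the 4 ENLWT groups at E18.5, with bars for the mean, error bars for the SD and points for libraries. By mean, Lrp2 stands highest in sorted Six2 cells (65.3), Dab2 in sorted Foxd1 cells (19.96) and Kap in both whole kidneys (106 and 124), where its libraries overlap with those of Lrp2 under the Six2 driver.

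All 8 genes rose in ENLWT cells of the Six2 lineage between E14.5 and E18.5, where 24.8% of all tested genes rose by the same rule (adjusted p under 0.01 and fold over 2, edgeR's quasi-likelihood test). Kap and the receptor genes rose most. Lrp2 stood at 3.13, 4.04 and 7.05 CPM at E14.5 and at 1232, 1172 and 867 CPM at E18.5, a log2 fold change of 7.99 (SE 0.31, adjusted p = 1.26e-11). Cubn stood at 0.237, 0.558 and 0.292 CPM and then at 160, 169 and 125 CPM, a log2 fold change of 8.82 (SE 0.43, adjusted p = 1.25e-10). At neither gene did a library of one stage come near a library of the other, and the ratio of mean levels was 230.0 for Lrp2 and 418 for Cubn. Hnf4a rose from 2.88, 6.08 and 14.3 CPM to 107, 88.9 and 77.5 CPM (log2 fold change 3.70, SE 0.46, adjusted p = 4.30e-06), and Hnf4g from 0.15, 0.116 and 0.513 CPM to 1.93, 2.44 and 1.81 CPM (3.13, SE 0.47, adjusted p = 2.87e-05). The 3 ENLWT libraries at E14.5 were far from alike in Hnf4a, yet all of them lay below every E18.5 library. Without E14.5 ENLWT replicate 3, the highest of them, the change was 4.46 for Hnf4a, 4.07 for Hnf4g and 3.35 for Amn. With all libraries Amn rose by 2.35 on the log2 scale (SE 0.53, adjusted p = 0.00107), Clcn5 by 2.18 (SE 0.11, adjusted p = 2.32e-10) and Dab2 by 1.45 (SE 0.15, adjusted p = 7.33e-07). Dab2 and Clcn5 were already at 43.6 to 77.9 and 49.9 to 61.8 CPM at E14.5, the only members above 15 CPM at that stage. Kap had no count in any E14.5 library and reached 1.43, 7.62 and 5.43 CPM at E18.5, which is at least 629.6-fold higher when the E14.5 group is set at the floor of 3 counts, and this floor covers counting error only. With RLE size factors in place of TMM the median log2 change of all genes moved up by 0.13, and with library size only it fell by 0.14, both small against the changes of the members.

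**Figure D2:**
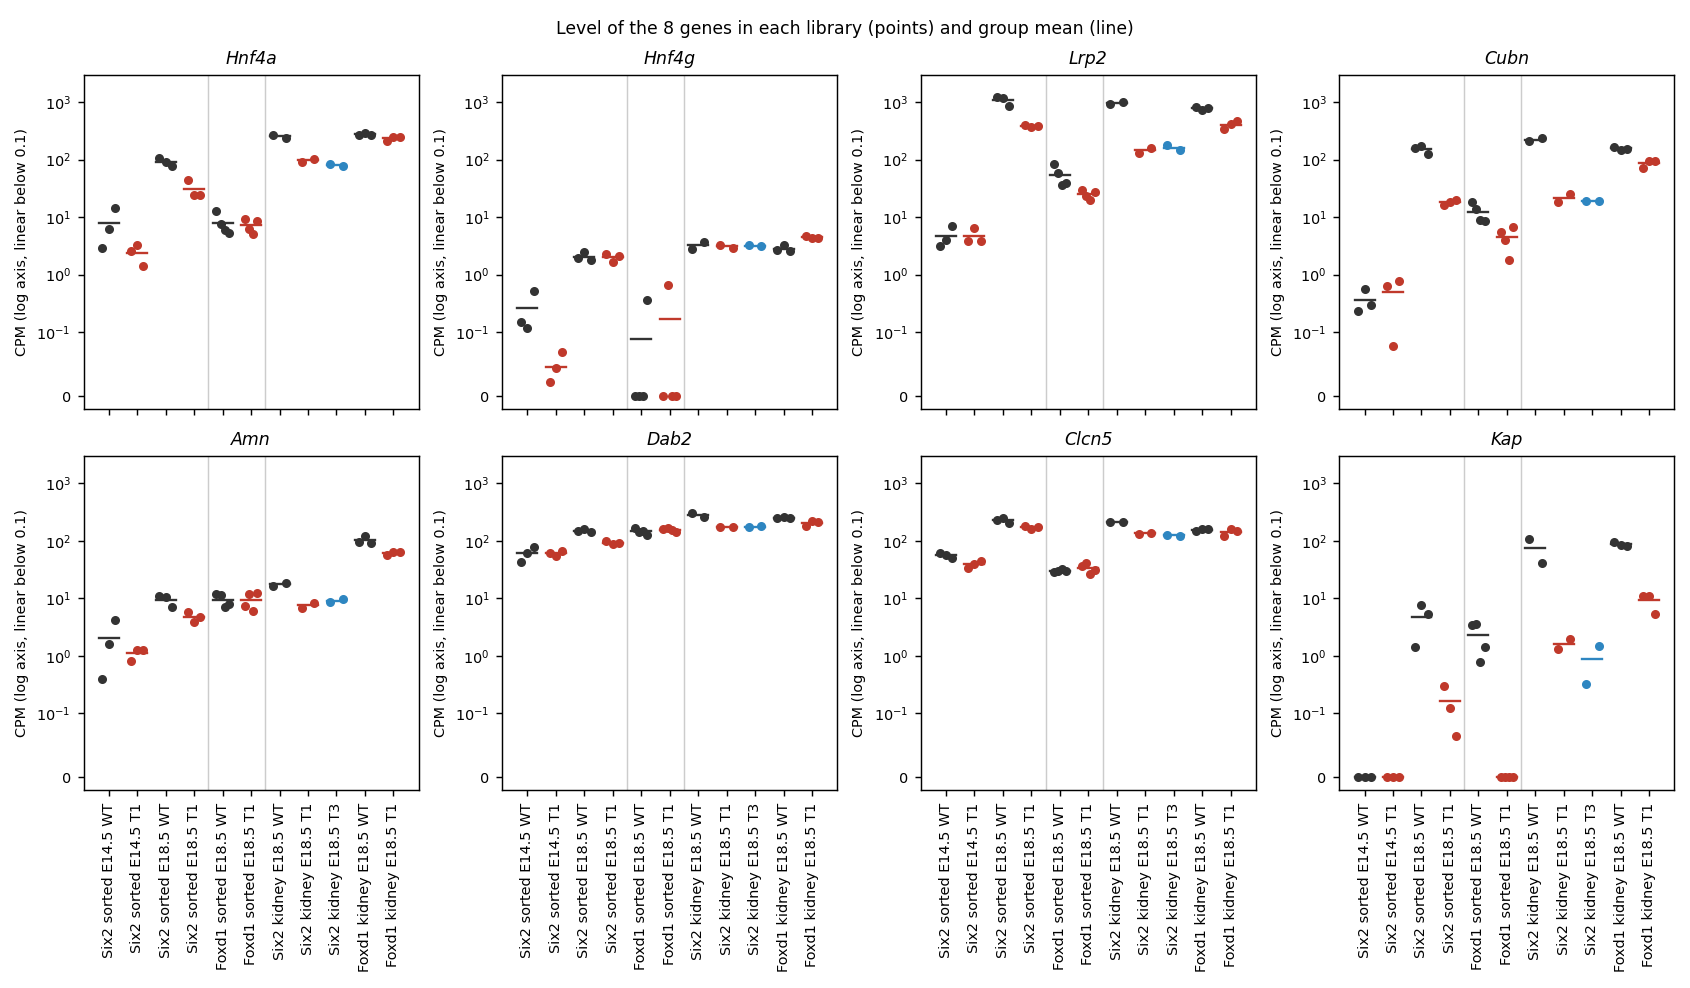
CPM of each of the 8 genes (log axis, linear below 0.1) in all 32 libraries (points) with the group mean (line), ENLWT in dark grey, T1 in red and T3 in blue. Lrp2 climbs from 3.13 to 7.05 CPM at E14.5 to 867 to 1232 CPM at E18.5 in sorted ENLWT Six2 cells, and Kap is at 0 in all sorted E14.5 libraries and in all 4 sorted Foxd1-ENLT1 libraries.

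The same rise was seen in Six2-ENLT1 cells for 7 of the 8 genes (24.4% of all tested genes rose), but it ended at lower levels for most. Lrp2 rose by 6.45 on the log2 scale (SE 0.29, adjusted p = 6.36e-11), Cubn by 5.23 (SE 0.38, adjusted p = 1.27e-08), Hnf4a by 3.77 (SE 0.48, adjusted p = 5.27e-06) and Hnf4g by 5.54 (SE 0.56, adjusted p = 5.11e-07). Clcn5 rose by 2.21 (SE 0.11, adjusted p = 2.18e-10) and Amn by 2.19 (SE 0.54, adjusted p = 0.00211), a call that was lost without the E14.5 T1 replicate 1 (1.99, adjusted p = 0.0117). Dab2 went from 60.8, 53.5 and 67.2 CPM to 98.4, 86.5 and 90.7 CPM, which passed the test but not the fold threshold (0.70, SE 0.15, adjusted p = 0.000809), and Kap was at least 20.9-fold higher at E18.5. The test of the difference between the genotypes in this rise called 3 of 8 genes, all with a smaller rise in the mutant (4.22% of all tested genes were called in this direction): Cubn by -3.59 on the log2 scale (SE 0.57, adjusted p = 0.00143), Lrp2 by -1.54 (SE 0.34, adjusted p = 0.0128) and Dab2 by -0.75 (SE 0.21, adjusted p = 0.0443). The call of Dab2 did not hold in 7 of the 12 fits that left out 1 library, nor with library size only (adjusted p = 0.0591) or with the replicate number as a block (adjusted p = 0.0513). For Hnf4a the difference was 0.07 (SE 0.60, adjusted p = 0.978) and for Hnf4g it was 2.41 (SE 0.71, adjusted p = 0.0531). DESeq2 called Hnf4g (adjusted p = 0.0102), as did the fits without low-count filter (adjusted p = 0.0169), with library size only (adjusted p = 0.0476) and without E14.5 ENLWT replicate 1 or 2.

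At E14.5 itself no member was called between Six2-ENLT1 and ENLWT cells, with 7 genes tested and Kap at 0 in all 6 libraries (6.4% of all tested genes were called in either direction). Hnf4a, Hnf4g and Clcn5, 3 of the 7, had an unadjusted p under 0.05 in edgeR's quasi-likelihood test. The share of all tested genes at that threshold was not counted, so this number is not read as a result. The regulators had the widest gaps. Hnf4g stood at 0.0225, 0.0432 and 0.0688 CPM in the mutant, from 3, 5 and 9 counts, and at 0.15, 0.116 and 0.513 CPM in ENLWT, from 19, 16 and 65 counts. The groups did not overlap, and the log2 fold change was -2.54 (SE 0.76, adjusted p = 0.0644). Hnf4a stood at 2.57, 3.26 and 1.41 CPM against 2.88, 6.08 and 14.3 CPM, with a log2 fold change of -1.71 (SE 0.53, adjusted p = 0.0735). Here 1 mutant library lay above the lowest ENLWT library, so the groups overlapped. The edgeR exact test, which the authors used, called both regulators, DESeq2 called Hnf4g alone, and the fits without low-count filter and without ENLWT replicate 1 called Hnf4a alone. Clcn5 was at 34.2, 39.2 and 45.0 CPM against 61.8, 56.5 and 49.9 CPM, apart but by less than 1.5-fold (log2 fold change -0.55, SE 0.11, adjusted p = 0.0150), and was called without ENLWT replicate 3 or without T1 replicate 3. Lrp2 (-0.06, SE 0.31, adjusted p = 0.940), Cubn (0.43, SE 0.71, adjusted p = 0.773), Amn (-0.92, SE 0.65, adjusted p = 0.434) and Dab2 (-0.05, SE 0.18, adjusted p = 0.902) overlapped between the genotypes. Summed stroma markers were at 1005 to 1984 CPM in the mutant E14.5 cells and 512.5 to 679 CPM in ENLWT, with 7 of 9 called higher and 1 lower. Nephron progenitor markers were at 985 to 1189 CPM in the mutant and 1855 to 2134 CPM in ENLWT, with 6 of 7 called lower. Podocyte markers were at 54.1 to 59.8 and 97.97 to 124.6 CPM, with 2 of 5 tested called lower and 1 higher. The part of these cell types in the values of the members was not tested.

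In whole E18.5 kidneys with the Six2 driver, 7 of the 8 genes fell in Six2-ENLT1 and the same 7 fell in Six2-ENLT3 (adjusted p under 0.05 and fold over 1.5), where 4.88% and 5.28% of all 23931 tested genes fell. Both mutants were compared with the same 2 ENLWT libraries, so the results are not independent of each other. The exception was Hnf4g. The median log2 change of the 8 was -1.37 with either mutation, against -0.01 and -0.00214 over all tested genes. Between the mutants themselves no member was called (0.00418% of all tested genes were), and the edgeR exact test and DESeq2 called none. Hnf4a alone had an unadjusted p under 0.05, and the share of all tested genes at that threshold was not counted. Both Six2-ENLT1 kidneys had the Y-linked Ddx3y and both Six2-ENLT3 kidneys had Xist. Mutation and sex therefore cannot be told apart in this comparison. In sorted Six2 cells of E18.5, 6 of the 8 genes fell in Six2-ENLT1 (5.54% of all tested genes did), with a median of -1.35.

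Of the regulators, Hnf4a stood at 268 and 234 CPM in ENLWT kidneys, at 90.9 and 102 CPM in Six2-ENLT1 and at 83.0 and 77.6 CPM in Six2-ENLT3. All mutant libraries were below both controls, with log2 fold changes of -1.46 (SE 0.09, adjusted p = 9.08e-05) for T1 and -1.72 (SE 0.09, adjusted p = 4.22e-05) for T3. In sorted cells Hnf4a went from 107, 88.9 and 77.5 CPM to 43.4, 24.2 and 24.4 CPM (-1.66, SE 0.19, adjusted p = 2.43e-05), again with no overlap and with T1 replicate 1 the highest of the mutant libraries. Hnf4g did not follow. It stood at 2.83 and 3.69 CPM in ENLWT kidneys, at 3.31 and 2.89 CPM in Six2-ENLT1 and at 3.26 and 3.12 CPM in Six2-ENLT3, so that every mutant library lay between the controls. The log2 fold changes were -0.15 (SE 0.17, adjusted p = 0.655) and -0.11 (SE 0.17, adjusted p = 0.723). In sorted cells Hnf4g was at 1.93, 2.44 and 1.81 CPM in ENLWT and at 2.27, 1.66 and 2.08 CPM in Six2-ENLT1 (-0.14, SE 0.21, adjusted p = 0.730), from 132 to 210 counts per library. Within a library, the log2 ratio of Hnf4g to Hnf4a counts was higher by 1.57 in the mutant sorted cells, with no overlap between the genotypes (two-sided exact permutation test over samples p = 0.1, the smallest that 3 against 3 allows, adjusted p over 13 ratios 0.118). In whole kidneys this ratio was higher by 1.32 in Six2-ENLT1 and by 1.62 in Six2-ENLT3, where an exact permutation test of 2 against 2 cannot go below p = 0.333.

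In whole kidneys the receptor genes had the steepest falls after Kap, while in sorted cells Hnf4a (-1.66) and Lrp2 fell by similar amounts and Cubn by more. Lrp2 went from 926 and 986 CPM in ENLWT kidneys to 132 and 161 CPM in Six2-ENLT1 and 177 and 145 CPM in Six2-ENLT3. These are log2 fold changes of -2.78 (SE 0.14, adjusted p = 4.14e-05) and -2.64 (SE 0.14, adjusted p = 3.86e-05). The mutant kidneys kept 15.3% and 16.8% of the mean ENLWT level. In sorted cells Lrp2 went from 1232, 1172 and 867 CPM to 394, 372 and 380 CPM (-1.61, SE 0.10, adjusted p = 1.56e-07), that is to 35.03% of the control mean. Cubn went further down than Lrp2 in both kinds of sample: from 208 and 235 CPM in ENLWT kidneys to 18.3 and 24.8 CPM in Six2-ENLT1 (-3.44, SE 0.14, adjusted p = 3.03e-05) and to 18.9 and 19.1 CPM in Six2-ENLT3 (-3.62, SE 0.15, adjusted p = 2.44e-05). In sorted cells Cubn was at 160, 169 and 125 CPM in ENLWT and at 16.2, 18.0 and 20.1 CPM in Six2-ENLT1 (-3.16, SE 0.12, adjusted p = 8.96e-10). None of these groups overlapped, and about 9.74% of the mean Cubn level remained in Six2-ENLT1 kidneys and 11.96% in sorted cells. The unequal size of the fall is visible within each library. The log2 ratio of Cubn to Lrp2 counts was lower by 1.56 in sorted Six2-ENLT1 cells, from -2.84 ± 0.08 to -4.40 ± 0.18 (SD, n = 3 each, exact permutation test p = 0.1, adjusted p = 0.118), and it changed by -0.66 in Six2-ENLT1 and by -0.96 in Six2-ENLT3 kidneys.

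Amn, the partner that carries cubilin to the surface, fell less. It stood at 16.4 and 18.54 CPM in ENLWT kidneys, 6.92 and 8.31 CPM in Six2-ENLT1 and 8.55 and 9.62 CPM in Six2-ENLT3. All mutant libraries were below the controls (log2 fold changes -1.27, SE 0.12, adjusted p = 0.000553, and -1.02, SE 0.12, adjusted p = 0.00125). In sorted cells Amn went from 10.9, 10.4 and 7.21 CPM to 5.72, 3.81 and 4.68 CPM (-1.09, SE 0.18, adjusted p = 0.000606). Amn counts per Cubn count were therefore higher in every mutant library, by 2.06 on the log2 scale in sorted cells, by 2.17 in Six2-ENLT1 kidneys and 2.60 in Six2-ENLT3 kidneys.

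Dab2 and Clcn5, the adaptor and the endosomal exchanger, had the shallowest falls. Dab2 was at 307 and 265 CPM in ENLWT kidneys, at 174 and 176 CPM in Six2-ENLT1 and at 172 and 180.1 CPM in Six2-ENLT3 (log2 fold changes -0.78, SE 0.08, adjusted p = 0.000655, and -0.77, SE 0.08, adjusted p = 0.000605). In sorted cells it went from 149.7, 162 and 141 CPM to 98.4, 86.5 and 90.7 CPM (-0.81, SE 0.07, adjusted p = 3.65e-06). The groups were apart in all of these comparisons, and the 4 mutant kidney libraries spanned 172 to 180.1 CPM. Clcn5 was at 215 and 213 CPM in ENLWT kidneys, 132 and 138 CPM in Six2-ENLT1 and 126 and 123 CPM in Six2-ENLT3 (-0.74, SE 0.06, adjusted p = 0.000230, and -0.85, SE 0.06, adjusted p = 0.000108). In sorted cells Clcn5 was at 235, 250.1 and 207 CPM against 183, 158 and 173 CPM, apart but under the fold threshold (-0.52, SE 0.08, adjusted p = 0.000401), and it passed without ENLWT replicate 3 (-0.59). Clcn5 is X-linked, and of the ENLWT kidneys the one at 215 CPM had the Y-linked Ddx3y and the one at 213 CPM had Xist. Set against Lrp2 in the same library, Dab2 was higher by 0.78 and Clcn5 by 1.07 in mutant sorted cells, and by 2.01 and 2.05 in Six2-ENLT1 kidneys, with no overlap of genotypes.

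Of the 8 genes Kap had the largest fall in these 3 comparisons. It stood at 108 and 41.6 CPM in ENLWT kidneys, at 1.32 and 1.96 CPM in Six2-ENLT1 and at 0.33 and 1.47 CPM in Six2-ENLT3. The mutants thus had 2.19% and 1.20% of the mean control level (log2 fold changes -5.60, SE 0.64, adjusted p = 0.00116, and -6.44, SE 0.68, adjusted p = 0.000709). The control mean rests on 2 kidneys that differed widely, and without ENLWT replicate 1, the higher of them, the changes of Kap were -4.75 and -5.60. Without Six2-ENLT3 replicate 1 or 2 the latter was -5.74 or -7.88, and Kap was called in each of these fits. Because Kap responds to androgen, sex was read from Xist and Ddx3y. The ENLWT kidney at 108 CPM and both Six2-ENLT1 kidneys had Ddx3y, and the ENLWT kidney at 41.6 CPM and both Six2-ENLT3 kidneys had Xist. Within a sex, Kap was thus lower in Six2-ENLT1 than in the 1 control with Ddx3y, and lower in Six2-ENLT3 than in the 1 control with Xist. In sorted cells Kap went from 1.43, 7.62 and 5.43 CPM to 0.304, 0.126 and 0.0654 CPM (-4.92, SE 0.61, adjusted p = 6.09e-05, and -5.73 without Six2-ENLT1 replicate 1). Replicate 1 of each genotype had Ddx3y and the others Xist, and the mutant was again lower within each sex. Per exon length, Kap, which had the highest mean of the 8 in ENLWT kidneys, was the sixth in Six2-ENLT1 and Six2-ENLT3 kidneys, where Dab2 led at 23.8 ± 0.152 and 24.0 ± 0.747 CPM per kilobase (SD, n = 2 each).

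**Figure D3:**
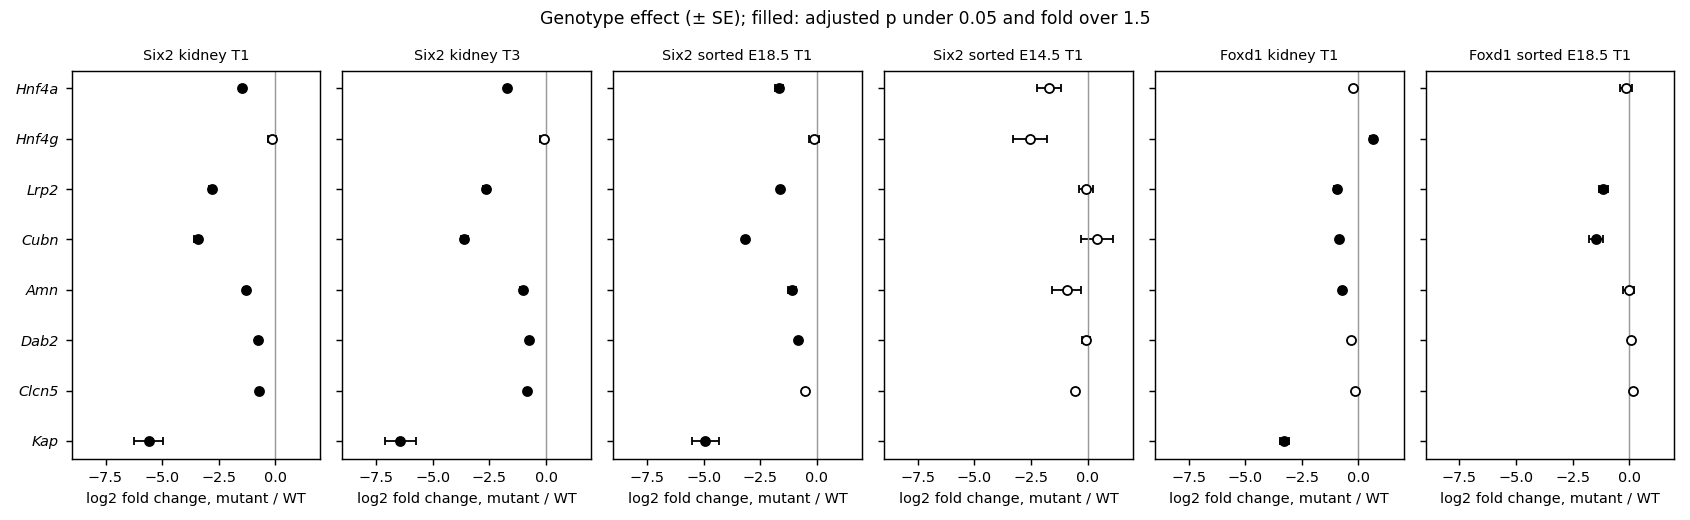
Log2 fold change of mutant over ENLWT (horizontal axis, ± SE from edgeR's quasi-likelihood test) for each of the 8 genes in the 6 genotype comparisons, filled where adjusted p was under 0.05 with a fold over 1.5, and left out where a gene was not tested. Cubn lies left of Lrp2 in all 3 comparisons of E18.5 Six2 samples (-3.44, -3.62 and -3.16), and Hnf4g lies near 0 there (-0.15, -0.11 and -0.14).

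Markers of other cell types moved with genotype in these samples. In sorted Six2 cells of E18.5, macrophage markers were at 34.7 to 38.7 CPM in ENLWT and 101.5 to 118 CPM in Six2-ENLT1 (7 of 9 called higher), red cell markers at 95.4 to 200.5 CPM and 1549 to 2283 CPM (5 of 6 higher), stroma markers at 306 to 521 CPM and 819.5 to 955.5 CPM (6 of 9 higher, 2 lower), and podocyte markers at 2660 to 3093 CPM and 210 to 257 CPM (6 of 6 lower). In whole Six2 kidneys macrophage markers were at 154 CPM in ENLWT and at 224 to 259 CPM in the mutants (7 of 9 higher with either mutation), and nephron progenitor markers at 310.0 to 365 CPM and at 156 to 190.3 CPM (6 of 7 lower with either). Podocyte markers there were at 879 to 993.5 CPM in ENLWT and 284 to 299.6 CPM in the mutants (6 of 6 lower with either). Loop and distal tubule markers were at 1045 to 1144 CPM and 511 to 607.5 CPM (4 of 5 tested lower with T1, 5 of 5 with T3). In sorted Six2 cells of E18.5 the latter were at 101.9 to 179 CPM and 60.4 to 106.8 CPM (5 of 5 tested lower). Of 8 nascent nephron markers in the kidneys 4 were higher with T1, and 5 higher and 1 lower with T3. The part of these shifts in the members' values was not tested.

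The members were also set against the summed counts of the 27 proximal tubule transporters and enzymes of the same library. This shifts all members of a library alike. In sorted E18.5 cells the sum itself was at 1193 to 1520 CPM in ENLWT and at 379 to 453 CPM in Six2-ENLT1. In sorted cells Hnf4a (0.07, exact permutation test p = 0.900) and Lrp2 (0.19, p = 0.300) differed little between the genotypes in their log2 ratio to this sum, and their groups overlapped. Cubn was lower by 1.37 and Kap by 3.08 relative to the sum, while Amn was higher by 0.69, Dab2 by 0.97, Clcn5 by 1.26 and Hnf4g by 1.65, all with no overlap (exact permutation test p = 0.1 each, adjusted p = 0.118). In Six2-ENLT1 kidneys Cubn was lower by 1.17, Lrp2 by 0.51 and Kap by 3.17 relative to the sum, and Hnf4a was higher by 0.82. In all, 11 of 13 ratios were apart in sorted cells, 13 of 13 in Six2-ENLT1 kidneys and 12 of 13 in Six2-ENLT3 kidneys, against 2 of 12 in sorted cells of E14.5, where Kap had no count and no ratio was formed. The genotypes did not overlap for 38% of single tested genes in sorted cells of E18.5, for 57.2% in the kidneys with either mutation and for 32.2% in sorted cells of E14.5.

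**Figure D4:**
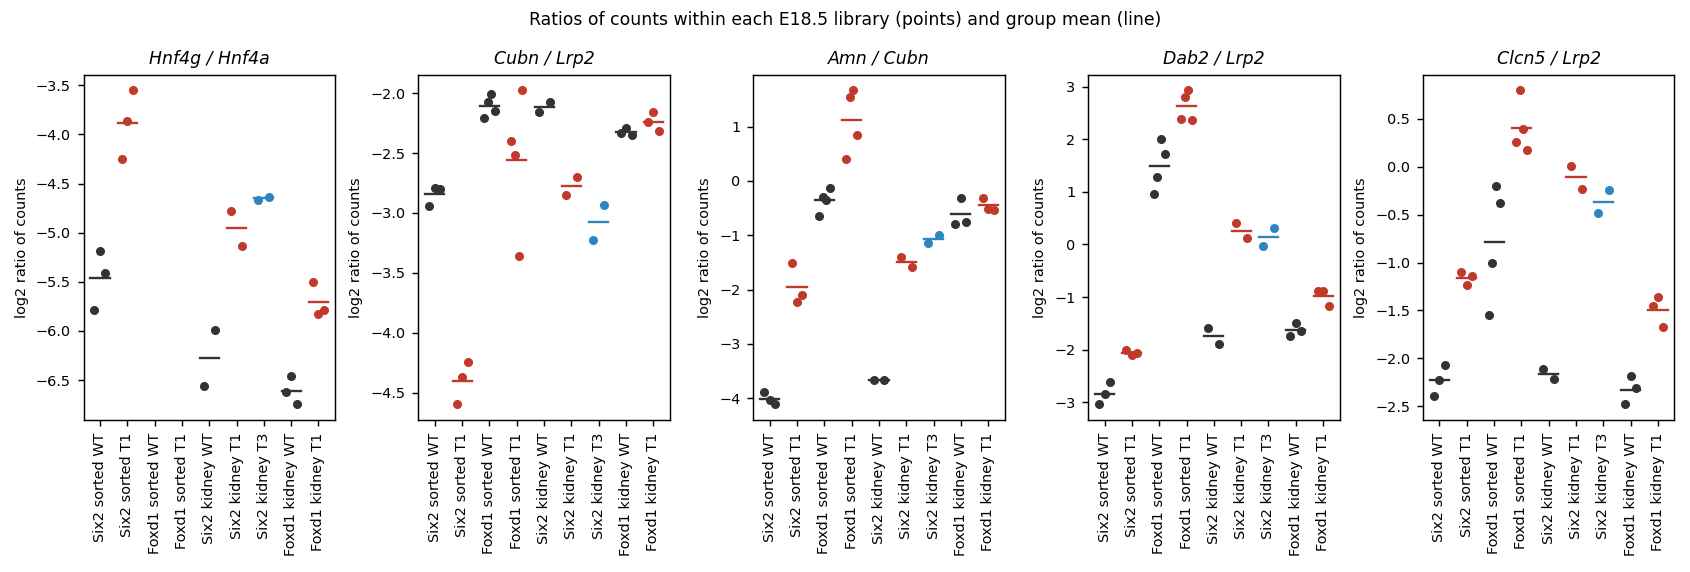
Log2 ratio of the counts of 2 genes within each E18.5 library (points) and the group mean (line), ENLWT in dark grey, T1 in red and T3 in blue, each panel on its own linear scale. In Six2 samples Hnf4g / Hnf4a and Amn / Cubn are higher and Cubn / Lrp2 is lower in mutants, whereas in Foxd1 kidneys Cubn / Lrp2 overlaps between the genotypes (difference 0.08); sorted Foxd1 cells are left out of the first panel, since Hnf4g had at most 2 counts there.

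Other genes of the proximal tubule and of the uptake pathway were read from lists. Of 27 transporters and enzymes, 23 fell in Six2-ENLT1 kidneys (median log2 change -2.13), 24 in Six2-ENLT3 kidneys (-2.35) and 23 in sorted E18.5 cells (-1.89), and none rose. Among them, Fbp1, a gluconeogenic enzyme, changed by -3.63 (SE 0.24, adjusted p = 0.000114) in Six2-ENLT1 kidneys and by -3.38 (SE 0.19, adjusted p = 3.74e-08) in sorted cells, and Miox, an enzyme of inositol breakdown, by -4.07 (SE 0.57, adjusted p = 0.00302) and -3.17 (SE 0.53, adjusted p = 0.000760). Aqp1, the water channel of the proximal tubule, changed by -3.36 (SE 0.17, adjusted p = 1.65e-08) in sorted cells. Of 9 other transcription regulators of the proximal tubule, 3 fell in Six2-ENLT1 kidneys, 3 in Six2-ENLT3 kidneys and 2 in sorted cells, and none rose. Tfec changed by -1.13 (SE 0.17, adjusted p = 0.00417) and -1.49 (SE 0.17, adjusted p = 0.00112) in the kidneys. At E14.5 Maf fell by 0.60 on the log2 scale (SE 0.10, adjusted p = 0.00553), while Ppargc1a rose by 0.96 (SE 0.16, adjusted p = 0.00602). The change of Maf was under 1.5-fold with library size only (-0.56) and without ENLWT replicate 1 or 3 or Six2-ENLT1 replicate 3 (-0.57 to -0.55).

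Calls among genes of the shared machinery of endocytosis are set beside those of all tested genes. In Six2-ENLT1 and Six2-ENLT3 kidneys 4.88% and 5.28% of all tested genes fell. In sorted cells 11.7% were called in either direction at E18.5 and 6.4% at E14.5. Of 23 other adaptor and coat genes, 1 fell in the kidneys with either mutation, Lrpap1, which encodes the chaperone of megalin (-0.84, SE 0.06, adjusted p = 0.000176, and -0.91, SE 0.06, adjusted p = 0.000108). None was called in sorted cells of E18.5, and at E14.5 only Fcgrt was (0.69, SE 0.08, adjusted p = 0.00116). The medians of this list were -0.09, -0.04 and -0.11 in Six2-ENLT1 kidneys, Six2-ENLT3 kidneys and sorted cells. Of 17 genes of endosome acidification and lysosomes, 2 subunits of the vacuolar proton pump fell in Six2-ENLT1 kidneys: Atp6v0a4 (-1.34, SE 0.12, adjusted p = 0.000433) and Atp6v1a (-0.77, SE 0.06, adjusted p = 0.000305). The same 2 fell in Six2-ENLT3 kidneys (-1.29 and -0.80), and Atp6v0a4 also fell in sorted cells (-1.53, SE 0.11, adjusted p = 5.64e-07). Of 9 tested ligands of megalin and cubilin, 2 fell in the kidneys with either mutation, and 3 fell and 1 rose in sorted cells. Ttr, which encodes transthyretin, changed by -2.36 (SE 0.49, adjusted p = 0.0176) in Six2-ENLT1 kidneys and by -2.94 (SE 0.38, adjusted p = 8.31e-05) in sorted cells. In the kidneys the call of Ttr was lost without Six2-ENLT1 replicate 1 (-1.89, adjusted p = 0.115), and its change was -1.68 without ENLWT replicate 1 and -2.96 without Six2-ENLT1 replicate 2. Tcn2, the carrier of vitamin B12, changed by -1.15 (SE 0.14, adjusted p = 0.00146) and -0.84 (SE 0.07, adjusted p = 2.81e-06). In sorted cells Gc, the vitamin D-binding protein, fell by 3.11 on the log2 scale (SE 0.19, adjusted p = 1.13e-07), and Clu, clusterin, rose by 0.61 (SE 0.08, adjusted p = 9.70e-05), a change under 1.5-fold without ENLWT replicate 3 (0.57) or Six2-ENLT1 replicate 1 (0.53). Among 7 receptor genes related to Lrp2, none was called in kidneys with either mutation. In sorted E18.5 cells none of the 6 tested was called, and of the 6 tested at E14.5 Vldlr rose (1.54, SE 0.09, adjusted p = 5.39e-05).

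In whole kidneys with the Foxd1 driver, in which Cre is active in stromal progenitors, 4 of the 8 genes fell in Foxd1-ENLT1 and 1 rose (7.53% of all 20145 tested genes fell and 2.65% rose). Kap went from 97.1, 85.0 and 81.7 CPM to 11.1, 11.1 and 5.38 CPM (-3.27, SE 0.19, adjusted p = 6.14e-08). Lrp2 went from 831, 728 and 787 CPM to 334, 413 and 468 CPM (-0.96, SE 0.10, adjusted p = 6.57e-06), and Cubn from 165, 149 and 155 CPM to 70.6, 92.5 and 94.0 CPM (-0.88, SE 0.09, adjusted p = 7.32e-06). All 3 were apart between the genotypes, as were 47.1% of all tested genes in these kidneys. Lrp2 and Cubn kept about the same proportion to each other, with a log2 ratio that moved by 0.08 and overlapped. All 6 of these kidneys had Xist, so the fall of Kap was within 1 sex. Amn went from 95.7, 120.0 and 91.7 CPM to 57.0, 64.9 and 65.2 CPM (-0.73, SE 0.09, adjusted p = 5.26e-05). The only member that rose, Hnf4g, went from 2.72, 3.24 and 2.52 CPM to 4.60, 4.33 and 4.38 CPM (0.64, SE 0.14, adjusted p = 0.00387). Its groups did not overlap, and without ENLWT replicate 3 its change was 0.56 (adjusted p = 0.0217), under the fold threshold. Hnf4a was at 268, 286 and 272 CPM against 208, 247 and 241 CPM, apart but by little (-0.26, SE 0.07, adjusted p = 0.00818), as was Dab2 at 247, 259 and 252 CPM against 180.3, 223 and 209 CPM (-0.32, SE 0.07, adjusted p = 0.00332), both under 1.5-fold. Clcn5 overlapped, at 149, 159.5 and 159 CPM against 122, 161 and 146 CPM (-0.13, SE 0.08, adjusted p = 0.235). Of the 27 transporters and enzymes 20 fell and 1 rose (median -0.92), and of the 9 other regulators none was called, with all 9 estimates below 0. Slc9a3, the sodium and proton exchanger of the brush border, fell by 1.09 on the log2 scale (SE 0.11, adjusted p = 1.12e-05). In these kidneys nephron progenitor markers were at 494 to 536 CPM in ENLWT and 758 to 927 CPM in Foxd1-ENLT1 (5 of 7 called higher), and their part in the members' values was not tested.

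The genotype effect differed between the drivers for 6 of the 8 genes in whole kidneys, all with a smaller fall under Foxd1 GC (4.82% of all tested genes were called in this direction), in 1 fit over the Six2-ENLT1, Foxd1-ENLT1 and control kidneys. The difference in log2 fold change was 2.54 for Cubn (SE 0.19, adjusted p = 5.19e-06), 2.30 for Kap (SE 0.50, adjusted p = 0.0124, and 1.51 without Six2 ENLWT replicate 1), 1.80 for Lrp2 (SE 0.18, adjusted p = 4.15e-05) and 1.18 for Hnf4a (SE 0.12, adjusted p = 4.83e-05). For Clcn5 it was 0.59 (SE 0.13, adjusted p = 0.0145) and for Dab2 0.44 (SE 0.12, adjusted p = 0.0350), and the call of Dab2 was lost with library size only and in 7 fits that left out 1 library. Without Six2-ENLT1 replicate 1 the calls of Clcn5, Dab2 and Kap were all lost and 3 remained. All Foxd1 kidneys and Six2 ENLWT replicate 2 had Xist, and both Six2-ENLT1 kidneys and Six2 ENLWT replicate 1 had Ddx3y. Sex therefore cannot be told apart from driver and genotype here, which bears on Kap and the X-linked Clcn5. Hnf4g (0.77, SE 0.23, adjusted p = 0.0616) and Amn (0.53, SE 0.17, adjusted p = 0.0806) were not called here, while DESeq2 and the fit without low-count filter called both and the fit with the replicate number as a block called Amn (adjusted p = 0.0147). In ENLWT kidneys Amn was at 102 ± 15.3 CPM under the Foxd1 driver and at 17.5 ± 1.48 under the Six2 driver, against 275 ± 9.56 and 251 ± 23.9 CPM for Hnf4a, and these levels were set side by side across separate sequencing runs.

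In cells of the Foxd1 lineage sorted at E18.5, 6 genes could be tested and 2 fell, Lrp2 and Cubn (2.18% of all tested genes fell). Lrp2 was at 84.7, 59.3, 36.8 and 38.5 CPM in ENLWT and at 30.1, 23.6, 20.1 and 27.1 CPM in Foxd1-ENLT1 (-1.14, SE 0.21, adjusted p = 0.00110). Cubn was at 18.2, 13.997, 8.99 and 8.57 CPM and at 5.57, 3.99, 1.79 and 6.76 CPM (-1.46, SE 0.31, adjusted p = 0.00397), from 5 to 21 counts per mutant library. No mutant library reached an ENLWT library at either gene, where the genotypes did not overlap for 15.3% of all tested genes. Both stayed called whichever library was left out, with changes of -0.86 to -1.26 and -1.22 to -1.73. Kap had 12, 12, 2 and 4 counts in ENLWT (3.42, 3.57, 0.782 and 1.43 CPM) and none in the 4 mutant libraries, which is at least 8.89-fold lower with the mutant group at the floor of 3 counts. All 8 libraries had Ddx3y. Hnf4a was at 12.8, 7.45, 5.87 and 5.35 CPM against 9.29, 6.31, 5.01 and 8.70 CPM (-0.13, SE 0.28, adjusted p = 0.8294) and Amn at 11.7, 11.3, 7.04 and 7.85 CPM against 7.43, 11.96, 6.09 and 12.2 CPM (-0.01, SE 0.24, adjusted p = 0.985), both overlapping. Dab2 (0.08, SE 0.08, adjusted p = 0.601) and Clcn5 (0.17, SE 0.13, adjusted p = 0.472) overlapped as well. Hnf4g had 1 count in 1 ENLWT library, 2 counts in 1 mutant library and none in the other 6. Amn counts per Cubn count (1.47), Dab2 per Lrp2 (1.13) and Clcn5 per Lrp2 (1.19) were higher in the mutant on the log2 scale with no overlap (exact permutation test p = 0.0286, the smallest that 4 against 4 allows, adjusted p = 0.0619). Of the 18 tested transporters and enzymes 4 fell, among them Fbp1 (-1.97, SE 0.35, adjusted p = 0.000808). Set against the summed transporters and enzymes of the same library, Lrp2 was lower by 0.36 and Cubn by 0.82, and both overlapped between the genotypes (exact permutation test p = 0.0571 each, adjusted p = 0.0743). Some markers of other epithelia of the kidney were lower in the mutant too, and others were not. Podocyte marker sums overlapped, at 487 to 874 CPM in ENLWT and 515 to 668 CPM in the mutant, with none of 6 called. Of 7 nephron progenitor markers 1 was called higher and none lower. Summed loop and distal tubule markers were at 36.8 to 94.4 CPM in ENLWT and 11.5 to 34.2 CPM in the mutant, with 2 of 3 tested called lower, Umod (-2.17, SE 0.44, adjusted p = 0.00254) and Slc12a1 (-1.05, SE 0.33, adjusted p = 0.0483). Of 5 tested ureteric tree markers 1 was called lower, Aqp2, the water channel of the collecting duct, at a mean of 33.6 CPM in ENLWT and 2.78 CPM in the mutant (-3.59, SE 0.24, adjusted p = 1.58e-08), while the sums of that list overlapped (152 to 201.5 and 131 to 158.5 CPM). Macrophage markers were at 133 to 347.5 CPM in ENLWT and 286.5 to 392.2 CPM in the mutant (6 of 9 called higher), and nascent nephron markers at 123.5 to 202.8 and 313.4 to 342.3 CPM (4 of 7 tested called higher). The part of these cell types in the values of the members was not tested.

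Compared with sorted Six2 cells in ENLWT, sorted Foxd1 cells had 4 members called lower (28.2% of all tested genes were lower, adjusted p under 0.01 and fold over 2). The log2 differences were -4.19 for Lrp2 (SE 0.17, adjusted p = 1.63e-15), -3.46 for Cubn (SE 0.18, adjusted p = 6.61e-14), -3.38 for Hnf4a (SE 0.25, adjusted p = 3.02e-11) and -2.85 for Clcn5 (SE 0.11, adjusted p = 5.39e-16). Hnf4g was at least 8.39-fold lower. Dab2 at 147 ± 15.5 against 151 ± 10.8 CPM (0.06, SE 0.08, adjusted p = 0.510) and Amn at 9.47 ± 2.37 against 9.48 ± 1.98 CPM (0.12, SE 0.23, adjusted p = 0.614) overlapped, and Kap at 2.30 ± 1.41 against 4.83 ± 3.14 CPM was not called (-0.91, SE 0.61, adjusted p = 0.172). Without Six2 ENLWT replicate 1 Kap was called lower (-1.37), as it was without low-count filter (-1.25). That library had Ddx3y, as all sorted Foxd1 libraries did, and the other sorted Six2 ENLWT libraries of E18.5 had Xist. The genotype effect was smaller in Foxd1 cells than in Six2 cells for 5 genes (8.25% of all tested genes were called in this direction): Cubn (1.66, SE 0.38, adjusted p = 0.00400), Hnf4a (1.499, SE 0.43, adjusted p = 0.0197), Amn (1.06, SE 0.33, adjusted p = 0.0289), Dab2 (0.88, SE 0.12, adjusted p = 1.34e-05) and Clcn5 (0.68, SE 0.16, adjusted p = 0.00494). For Lrp2 the difference was 0.45 (SE 0.26, adjusted p = 0.290), and it was called without Foxd1 ENLWT replicate 1 (0.71, adjusted p = 0.0228) and without low-count filter. The call of Amn was lost in 7 fits that left out 1 library and that of Hnf4a without Foxd1-ENLT1 replicate 1 or 4, so that 3 calls remained without replicate 4.

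Across all 11 groups Hnf4a ran from 275 ± 9.56 CPM in Foxd1 ENLWT kidneys to 2.42 ± 0.934 CPM in E14.5 Six2-ENLT1 cells, and the 3 highest groups (both ENLWT kidneys and Foxd1-ENLT1 kidneys) overlapped in turn and stood apart from the rest. Lrp2 was highest in sorted E18.5 ENLWT cells (1090.4 ± 195.5 CPM), which overlapped with Six2 ENLWT kidneys (956 ± 42.7), and lowest in E14.5 Six2-ENLT1 cells (4.67 ± 1.45). Cubn was highest in Six2 ENLWT kidneys (221 ± 18.6 CPM), apart from the next group. Dab2 had the narrowest range of all 8, from 286 ± 30.0 CPM in Six2 ENLWT kidneys to 60.5 ± 6.90 in E14.5 Six2-ENLT1 cells. Clcn5 was lowest in sorted Foxd1 cells, at 30.0 ± 1.43 and 33.6 ± 6.41 CPM, in ENLWT and Foxd1-ENLT1. The Foxd1-ENLT1 libraries overlapped with E14.5 Six2-ENLT1 cells at 39.5 ± 5.39 CPM, and the ENLWT libraries did not.

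As a description of likeness, the profile of each member was set against those of 19138 genes by the root mean square difference. A profile is the log2 of the group mean CPM plus 0.5, centred, over the 11 groups. Kit and depth differ between some of the groups, and the profiles carry these differences too. Cubn was the second nearest gene to Lrp2 (0.617 on the log2 scale) and Lrp2 the second nearest to Cubn, after Abcc2 (0.451) and Acsm2 (0.552). Hnf4a was nearest to Anks4b (0.417), Slc22a8, Ggt1, Slc16a12 and Slc2a2, and its distance to Hnf4g was 1.17. Hnf4g was nearest to Cnksr1 (0.166), Amn to Baiap2l2 (0.450), Dab2 to Aph1c (0.180) and Clcn5 to Myo6 (0.233). Kap was nearest to Serpina6 (0.519), followed by Miox, Acsm1, Acmsd and Slc17a1.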

How the data were processed

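The authors sequenced polyadenylated RNA from both ends (KAPA stranded libraries of whole kidneys, SMART-Seq v4 libraries of sorted cells), aligned reads to mm10 by HISAT2 and assigned them to genes by HTSeq, ignoring the strand and keeping every alignment whatever its quality. The deposited values are whole-number counts that were not normalized. The annotation release is not given in the sources used here; GENCODE vM21 supplied symbols and positions, and it names 55536 of 55806 identifiers. Groups and replicate numbers came from the sample titles.

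Counts were fitted with edgeR 4.0.16 in R 4.3.3 (filterByExpr, minimum count 10, minimum total 15, TMM scaling, quasi-likelihood test), and Benjamini-Hochberg adjustment ran over all tested genes. Nothing in the labels says whether libraries came from separate animals, so p values measure only the spread between these samples. Genotype calls needed an adjusted p under 0.05 and a fold over 1.5, stage and lineage calls an adjusted p under 0.01 and a fold over 2, interactions an adjusted p under 0.05. CPM is the count relative to the library total, and an exon length is that of the merged exons. Ratios within a library used a prior count of 0.5 and a two-sided exact permutation test over samples, with adjustment over the 13 ratios of a comparison (12 at E14.5, where Kap had no count). Bounds set a group with no more than 3 counts at 3 counts over the group.

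The members and lists were chosen with earlier results of these data known. 3 list genes are not reported here and were left out of the counts of their lists. Named list genes are up to 4 per list and comparison, those with the largest change among called genes whose groups did not overlap. Alternatives were edgeR's exact test, DESeq2 1.42.0, RLE size factors, library size only, no low-count filter, other fold thresholds, the replicate number as a block, the 2 genotypes alone, a prior of 2 counts and each library left out. No 2 libraries of a group were copies. Figures were drawn with matplotlib 3.10.9.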

Additional observations from a re-analysis of the deposited data

Results flagged for a closer look

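The difference between genotypes in the rise from E14.5 to E18.5 passed the test of the difference itself for Lrp2 (-1.54 on the log2 scale), Cubn (-3.59) and Dab2 (-0.75), all with a smaller rise in Six2-ENLT1 cells. Between sorted Foxd1 and Six2 cells of E18.5 the genotype effect differed for Hnf4a (1.499), Cubn (1.66), Amn (1.06), Dab2 (0.88) and Clcn5 (0.68), and between the drivers in whole kidneys for Hnf4a (1.18), Lrp2 (1.80), Cubn (2.54), Dab2 (0.44), Clcn5 (0.59) and Kap (2.30), each with the smaller fall under Foxd1 GC. The E14.5 libraries behind the first test held few counts of Cubn (9 to 103 per library), and lineage, driver and sequencing run cannot be told apart in the others. Sex, read from Xist and Ddx3y, was also unevenly spread over the groups of those tests.

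In sorted Foxd1 cells 1 library of each genotype lay far from the other 3 of its group in Hnf4g, at 0.357 CPM in ENLWT and 0.665 CPM in Foxd1-ENLT1. These values stand for 1 count and 2 counts beside 3 libraries with none, where any library with a count is set apart in this way.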

How the results depend on the processing

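Of 203 counts of called members under another setting, 193 stayed within 1.5 times the reported count, and of 1372 values of single members 1276 kept their direction and their side of the threshold. Of 1160 values of list genes, 29 lost their call and none changed direction. The count at E14.5 was 1 with no fold threshold, 2 by the exact test, 1 by DESeq2, 1 without low-count filter and 0 to 1 with a library left out. Between T3 and T1 it was 1 without low-count filter (Kap, -0.85). With a library left out, the count was 3 to 6 for lineage by genotype (3 without Foxd1-ENLT1 replicate 4, 6 without Foxd1 ENLWT replicate 1) and 3 to 8 for driver by genotype (3 without Six2-ENLT1 replicate 1, 8 without Foxd1 ENLWT replicate 2). The ratios apart at E14.5 were 1 with a prior of 2 counts and 2 to 6 with a library left out, with 6 without T1 replicate 2 and 4 without ENLWT replicate 3. The cause was not tested in any of these.

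Changes of sign were seen only where no call was made in the reported fit. Clcn5 in stage by genotype was -0.0016 with DESeq2, -0.0016 with RLE and -0.018 without low-count filter. In ENLWT Foxd1 against Six2 cells Dab2 was -0.042 with library size only and -0.28 without low-count filter, and Amn was -0.21 without that filter. With a library left out, Hnf4g ran from -0.32 to 0.084 (T1 kidneys), -0.28 to 0.12 (T3) and -0.23 to 0.017 (sorted E18.5). At E14.5 Lrp2 ran from -0.34 to 0.33, Cubn from -0.048 to 0.93, Amn from -1.41 to 0.082 and Dab2 from -0.24 to 0.15. In Foxd1 cells Hnf4a ran from -0.27 to 0.21 and Amn from -0.16 to 0.14, and in ENLWT lineages Amn from -0.044 to 0.24. In stage by genotype Hnf4a ran from -0.70 to 0.46, Amn from -1.16 to 0.32 and Clcn5 from -0.089 to 0.14.

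Same-numbered libraries correlated by -0.12 to 0.237 over 19 pairs. With so few libraries in a group, these values cannot show whether the numbers pair the samples. With the replicate number as a block the count was 2 in stage by genotype and 7 in driver by genotype, and a library correlated best with its own number in 0 of 6 to 4 of 8 cases. The sorted Foxd1 libraries, the shallowest, limit Hnf4g and Kap.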
